A study of Mus musculus with 46 samples.

Results

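The sequences described here are mouse T cell receptor beta chain (TCRβ) rearrangements whose CDR3 carries a hydrophobic residue at both letter 6 and letter 7, counted from the first cysteine. A rearrangement was eligible when its CDR3 amino acid sequence had 12 to 16 letters, began with C and ended with F or W. It belonged to the set when letters 6 and 7 were both among A, C, F, I, L, M, V, W and Y. The rule found 3520 such rearrangements among 140429 eligible ones (2.51%) and 153913 in all (2.29%). Counting each V segment and CDR3 amino acid sequence once per library, as a clonotype, gave 3380 hydrophobic clonotypes among 133771 eligible ones, and 2922 of them were distinct. Another 47021 eligible rearrangements had exactly 1 hydrophobic letter at these positions, and 89888 had none.

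The study sequenced TCRβ rearrangements from genomic DNA of sorted mouse T cells, amplified by PCR with primers for all V and J segments. The labels name 46 samples; tables of 17 libraries were used, and the other 29 samples were not analysed here. The central nervous system (CNS) group held 3 libraries and the periphery group, from spleen and lymph nodes, held 3; all 6 came from C57BL/6 WT mice that were not pregnant and had EAE, experimental autoimmune encephalomyelitis, an induced autoimmune disease of the brain and spinal cord. The labels call the sorted cells of these 6 libraries "CD8-T cells" and do not say whether the hyphen is a minus sign. The other 11 libraries, also of spleen and lymph node cells, came from the transgenic DEREG line, in which Foxp3-expressing cells carry a marker. Of these, 7 held CD4+Foxp3+ regulatory T cells (Treg): 5 from the condition of EAE at embryonic day 18 of pregnancy (E18), 1 from the non-pregnant condition with EAE and 1 from the naive non-pregnant condition. The remaining 4 held CD4+Foxp3- conventional T cells (Tcon), 1 from E18 and 1 from non-pregnant mice with EAE, and 1 from E18 and 1 from non-pregnant naive mice. The labels do not say whether a library is 1 animal or a pool, so p-values measure only the spread between these libraries, which may be technical.

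The libraries had 278420 to 571124 reads, and no molecular identifiers are stated, so reads are not independent molecules and intervals cover counting error only. CNS libraries held 1698 to 3078 distinct rearrangements, against 6079 to 13303 in periphery. Treg libraries held 4565 to 16002, against 8528 to 19898 in Tcon. The deposited tables use 1 sequencing code for every Treg library and another for every Tcon library, so that code and cell type cannot be told apart. The TCRβ tables contain no marker genes, and Foxp3 or CD8 could not be checked in them.

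The CDR3 loop is the part of the TCR that sits over the peptide in the groove of the MHC molecule. Its middle is built from the end of the V segment, the short D segment, the start of the J segment and bases inserted at the joints. Letters 6 and 7 lie near the top of the loop in chains of usual length. Hydrophobic residues there are known from mouse and human work to favour recognition of self peptides in the thymus and to be more frequent in regulatory than in conventional CD4 T cells.

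The following CDR3 sequences, from the deposited tables, show how different letter pairs are written in DNA and include the largest or most widely shared clonotypes described further on. Each runs from the codon of C to that of the final F, and capitals mark codons 6 and 7, bases 16 to 21. Each is named by its letter pair, V segment and length in letters.

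AW of TRBV13-2, 15 letters, TRBD2 and TRBJ2-3: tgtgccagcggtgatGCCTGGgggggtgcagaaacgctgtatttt
AW of TRBV13-2, 15 letters, TRBJ1-2: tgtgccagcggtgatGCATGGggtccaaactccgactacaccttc
LW of TRBV13-2, 14 letters, TRBD2 and TRBJ2-5: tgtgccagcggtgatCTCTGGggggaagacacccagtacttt
VW of TRBV13-2, 13 letters, TRBD2 and TRBJ2-5: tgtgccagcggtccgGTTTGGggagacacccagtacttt
YW of TRBV1, 16 letters, TRBD2 and TRBJ2-5: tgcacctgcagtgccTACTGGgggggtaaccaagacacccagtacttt
AL of TRBV13-2, 15 letters, TRBD2 and TRBJ2-3: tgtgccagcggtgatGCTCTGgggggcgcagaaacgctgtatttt
AA of TRBV13-2, 16 letters, TRBD2 and TRBJ2-3: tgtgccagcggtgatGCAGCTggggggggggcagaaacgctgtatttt
AA of TRBV13-1, 14 letters, TRBJ2-4: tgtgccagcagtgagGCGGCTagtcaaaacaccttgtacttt
VY of TRBV31, 13 letters, TRBJ1-6: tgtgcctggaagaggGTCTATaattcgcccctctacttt

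In the first 5, codon 7 is TGG, tryptophan; where TRBD2 was assigned, a run of G bases follows it. The AL sequence carries leucine there before a like run of G bases, and the remaining 3 carry alanine or tyrosine. Most of the TRBV13-2 sequences share their first 15 bases, the part before codon 6.

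A few letter pairs made up most of the set. Of 81 possible hydrophobic pairs, 64 were seen. Alanine then tryptophan (AW) gave 412 clonotypes, 12.2% of the set. Alanine then leucine (AL) gave 411, also 12.2%, and AA gave 354, or 10.5%. These 3 pairs together made up 34.8% of the set, and the 10 with the largest mean share over libraries, which also included YW, VW, VL, VA, LL, AV and AY, made up 63.9%. Alanine stood at letter 6 in 44.3% of the set, while letter 7 was tryptophan in 30.0% and leucine in 22.5%. Tryptophan at either letter occurred in 1230 clonotypes, 36.4% of the set.

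The V segment, the J segment and the length of the CDR3 all went with the share of hydrophobic clonotypes. All the segments named here matched genes on chromosome 6 of GRCm38, and TRBV13-2 lies at 41121396 to 41121832. Over all libraries, 5.11% of eligible TRBV13-2 clonotypes were in the set, 938 of 18372, and they supplied 27.8% of it. TRBV24 had a higher share, 6.79%, from 1458 clonotypes, and TRBV13-1 had 4.04%. At the other end, TRBV23 had 1.04%, TRBV15 1.22% and TRBV2 1.30%. The J segments TRBJ2-1 (3.53%), TRBJ2-3 (3.40%) and TRBJ2-7 (2.88%) led, while TRBJ1-3 (1.19%), TRBJ1-5 (1.23%) and TRBJ1-1 (1.29%) were lowest. By length, the share was 2.17% at 12 letters, 1.81% at 13, 2.18% at 14, 3.07% at 15 and 4.99% at 16. Because of these differences, each library's share was also computed at 1 common mix of V, J and length, from a logistic model with V, J, length and library as terms. How the authors' processing divided reads between near-identical members of the TRBV12 and TRBV13 families is not stated, so the TRBV13-1 and TRBV13-2 values are uncertain to that extent.

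The set differed from the other eligible rearrangements in how its middle was built. TRBD2, at 41542163 to 41542176, had been assigned to 53.0 ± 7.5% of hydrophobic rearrangements and to 33.8 ± 2.5% of the rest (SD over 17 libraries), and it was higher in the set in 17 of 17 libraries. TRBD1, at 41533201 to 41533212, was assigned to 12.4 ± 3.2% of the set and to 42.01 ± 1.2% of the rest, and was higher in the set in 0 of 17 libraries. As background, a reading frame of mouse TRBD2 encodes tryptophan, and TRBD1 has no such frame. The J segment came from the second J cluster in 83.7 ± 2.3% of the set and 71.5 ± 1.9% of the rest. Hydrophobic rearrangements had 3.77 ± 0.21 inserted bases, against 3.05 ± 0.053 in the rest, a difference in the same direction in 17 of 17 libraries. No D segment was assigned to 34.6 ± 7.6% of the set and 24.2 ± 1.6% of the rest, higher in the set in 16 of 17 libraries. Without an assigned D, every base between V and J was counted as inserted. The count can thus hold D bases too few to assign, and their part in the difference was not tested.

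At letter 6, the codon contained a base counted as inserted in 67.1 ± 5.6% of hydrophobic rearrangements and in 36.5 ± 1.2% of the rest. The V segment encoded the whole codon in 18.8 ± 4.4% of the set and 8.21 ± 0.74% of the rest. The D segment encoded it in 6.35 ± 1.9% of the set and 43.7 ± 1.6% of the rest. Letter 6 of the set was therefore seldom assigned wholly to D, unlike the rest. At letter 7, the D segment encoded the codon in 38.7 ± 5.9% of the set and 55.6 ± 1.9% of the rest. Pairs differed among themselves: letter 7 was wholly D-encoded in 96.1% of YW rearrangements and 72.0% of AW rearrangements, but in 2.24% of AA rearrangements. These values follow in part from the letters the rule asks for and are a description. They leave out 3207 rearrangements whose segment boundaries were not in order.

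The first comparison asked whether the set took a larger share of the repertoire in Treg than in Tcon. Hydrophobic clonotypes made up 3.05%, 2.64%, 2.65%, 2.59% and 2.65% of eligible clonotypes in Treg EAE E18 replicates 1 to 5, 2.67% in the Treg EAE non-pregnant library and 2.53% in the Treg naive non-pregnant library. In Tcon the share was 2.29% (E18 with EAE), 2.03% (non-pregnant with EAE), 2.21% (naive E18) and 2.21% (naive and non-pregnant). Every Treg library was above every Tcon library. The Wilson 95% counting interval of a library was widest in Treg EAE E18 replicate 4, 2.14% to 3.13%, and Tcon EAE non-pregnant, 1.73% to 2.37%, so single libraries of the 2 groups can overlap within counting error. The means were 2.68 ± 0.17% in Treg (n = 7) and 2.19 ± 0.11% in Tcon (SD, n = 4).

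Comparing Treg with Tcon inside each combination of immunization and gestational state, the share was 0.456 percentage points higher in Treg (exact two-sided permutation test within strata, p = 0.0833, adjusted p = 0.16 over 8 share comparisons). The naive E18 Tcon library has no Treg counterpart and carries no weight in this test. At equal V, J and length the share was 2.97%, 2.70%, 2.76%, 2.56% and 2.63% in Treg EAE E18 replicates 1 to 5, 2.72% in Treg EAE non-pregnant and 2.63% in Treg naive non-pregnant. The corresponding Tcon values were 2.32%, 2.02%, 2.21% and 2.25% in the order given above. The groups were again apart, by 0.477 points, with the exact permutation p = 0.0417, the smallest that 24 assignments allow, and adjusted p = 0.16. The 8 comparisons could not reach an adjusted p below 0.0833 in this design, so none could pass 0.05 after adjustment.

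**Figure D1:**
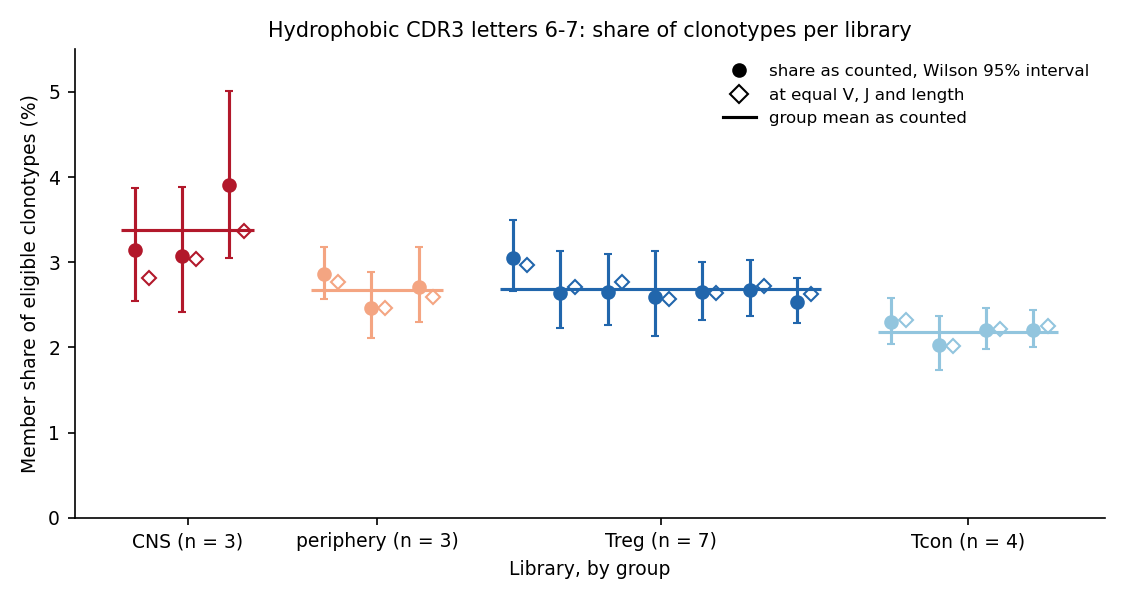
Share of eligible clonotypes with hydrophobic letters at 6 and 7, in percent, for the libraries of CNS, periphery, Treg and Tcon; filled points are shares as counted with Wilson 95% intervals, open diamonds are shares at equal V, J and length, and lines are group means as counted. Treg libraries lie between 2.53% and 3.05% as counted and all above the Tcon libraries, which reach 2.29%, and CNS libraries lie between 3.07% and 3.91%, above the periphery libraries, which reach 2.86%.

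The higher Treg share was spread over segments and lengths. Within V segments with at least 1% of eligible clonotypes, the hydrophobic share was higher in Treg in 14 of 19, and within J segments in 10 of 11. The exception was TRBJ2-7, with 2.62 ± 0.59% in Treg and 2.92 ± 0.38% in Tcon. The share was higher in Treg in 5 of 5 lengths. These counts use differences within strata, and plain means can differ in sign. TRBV2 counted as higher (means 1.19% in Treg, 1.32% in Tcon) and TRBV13-1 as lower (4.19% and 3.54%). TRBV3 showed 3.59 ± 0.73% in Treg and 2.51 ± 0.63% in Tcon. TRBV15 showed 1.98 ± 0.74% in Treg and 0.327 ± 0.26% in Tcon, where the libraries ranged from 0% to 0.597%. It had only 50 hydrophobic clonotypes over all libraries, so its shares rest on small counts. Within TRBV13-2 the Treg mean was 5.27 ± 0.86% and the Tcon mean 4.62 ± 0.49%, and the libraries overlapped. Outside TRBV13-2 the share was 2.29 ± 0.14% in Treg, ranging from 2.13% to 2.51%, and 1.80 ± 0.21% in Tcon, ranging from 1.49% to 1.96% (difference 0.427 points, exact permutation p = 0.0417). TRBV3 and TRBV15 were named after their values were seen.

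The difference between Treg and Tcon lay in hydrophobic pairs with tryptophan. Splitting the set by this letter was chosen after the values were seen. Pairs with tryptophan at letter 6 or 7 made up 1.49%, 1.05%, 1.03%, 1.26% and 1.14% of eligible clonotypes in Treg EAE E18 replicates 1 to 5, 1.09% in Treg EAE non-pregnant and 0.900% in Treg naive non-pregnant. In Tcon they made up 0.652% (E18 with EAE), 0.547% (non-pregnant with EAE), 0.828% (naive E18) and 0.690% (naive and non-pregnant). All Treg libraries were above all Tcon libraries, with a difference of 0.451 points. Hydrophobic pairs without tryptophan made up 1.55 ± 0.10% in Treg (1.33% to 1.63%) and 1.51 ± 0.11% in Tcon (1.38% to 1.64%). Those ranges overlapped, and the difference was 0.00545 points (exact permutation p = 1).

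Tryptophan next to a residue that is not hydrophobic was also more frequent in Treg. Clonotypes with tryptophan at letter 6 or 7 outside the set made up 9.10 ± 0.84% of eligible clonotypes in Treg and 7.04 ± 0.32% in Tcon, without overlap. By position, tryptophan stood at letter 6 in 4.01 ± 0.42% in Treg and 2.96 ± 0.091% in Tcon, and at letter 7 in 6.24 ± 0.53% in Treg and 4.77 ± 0.36% in Tcon. Leucine at letter 6 or 7 occurred in 9.45 ± 0.55% of eligible clonotypes in Treg and 8.50 ± 0.16% in Tcon. Clonotypes with exactly 1 hydrophobic letter at 6 and 7 ranged from 34.2% to 35.8% in Treg and from 30.9% to 32.5% in Tcon. The TRBD2 share among rearrangements outside the set was 34.1 ± 1.5% in Treg and 31.7 ± 0.77% in Tcon. With CDR3 length and D segment joined as 1 factor in the model, an alternative added after seeing the data, the Treg difference was 0.473 points (exact permutation p = 0.0833). The D segment is assigned from CDR3 bases that include codons 6 and 7. This model therefore cannot separate D use from the letters, and the part of D use in the difference was not tested.

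**Figure D2:**
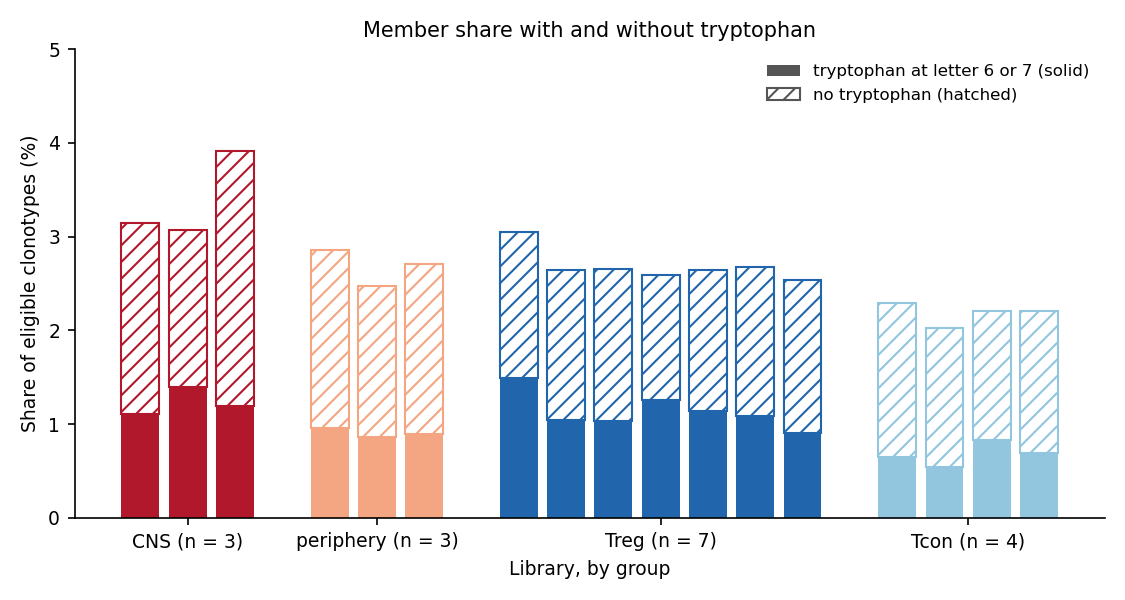
Share of eligible clonotypes, in percent, whose hydrophobic pair at letters 6 and 7 holds tryptophan, below the share whose pair does not; each stacked bar is 1 library, solid with tryptophan and hatched without. Pairs with tryptophan lie between 0.900% and 1.49% in Treg and between 0.547% and 0.828% in Tcon, whereas pairs without tryptophan overlap.

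Each ordered pair of letters was then tested on its own with edgeR's quasi-likelihood test on the number of distinct clonotypes per library, over all letter pairs with a mean of at least 10 clonotypes. Of 130 pairs tested for Treg over Tcon, 4 were called at an adjusted p under 0.05, all higher in Treg, a background of 3.08%. Of 5 hydrophobic pairs tested, 1 was called: tyrosine then tryptophan (YW). It made up 0.197%, 0.164%, 0.139%, 0.302% and 0.152% of eligible clonotypes in Treg EAE E18 replicates 1 to 5, 0.175% in Treg EAE non-pregnant and 0.196% in Treg naive non-pregnant. In Tcon it made up 0.0578% (E18 with EAE), 0.0401% (non-pregnant with EAE), 0.121% (naive E18) and 0.0870% (naive and non-pregnant). The groups did not overlap, as for 11 of 130 pairs (8.46%) in either direction. YW rose in Treg with a log2 fold change of 1.51 ± 0.35 (SE, edgeR adjusted p = 6.28e-04). The counts are small, 8 to 27 YW clonotypes in Treg libraries and 3 to 18 in Tcon libraries. Without Tcon EAE E18 replicate 5 the log2 fold change was 1.40 and the edgeR adjusted p was 0.130.

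The other 4 hydrophobic pairs did not pass. AW had a log2 fold change of 0.63 ± 0.21 (edgeR adjusted p = 0.0517), with shares of 0.380 ± 0.097% in Treg and 0.246 ± 0.040% in Tcon. AW passed in 6 of 17 alternative settings: without either of the naive non-pregnant libraries it was 0.997 (without Treg, edgeR adjusted p = 0.00432) and 0.991 (without Tcon, adjusted p = 0.00560), while with reads in place of clonotypes it was -0.24 (adjusted p = 0.993). VW had 0.62 ± 0.31 (adjusted p = 0.229). AA had -0.50 ± 0.23 (adjusted p = 0.158), with 0.195 ± 0.075% in Treg and 0.286 ± 0.036% in Tcon. AL had -0.22 ± 0.20 (adjusted p = 0.584). So the tested pairs ending in tryptophan had positive values on clonotypes and the pairs AA and AL negative ones. The other 3 called pairs, LG, WG and DW, hold leucine or tryptophan beside glycine or aspartate and lie outside the set, with log2 fold changes of 0.49, 0.40 and 0.37.

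The pairs were also summed by residue class, with F, W and Y as aromatic, I, L, M and V as aliphatic, and A and C as small. Aromatic then aromatic pairs made up 0.293 ± 0.065% of eligible clonotypes in Treg and 0.134 ± 0.041% in Tcon, without overlap. Aromatic then small pairs made up 0.167 ± 0.043% in Treg and 0.0876 ± 0.014% in Tcon, also without overlap. Small then aromatic pairs made up 0.531 ± 0.10% in Treg and 0.332 ± 0.031% in Tcon, with overlap (lowest Treg library 0.356%, highest Tcon library 0.377%). Small then small pairs made up 0.195 ± 0.075% in Treg and 0.286 ± 0.036% in Tcon. Aliphatic then aliphatic pairs were close, at 0.298 ± 0.079% in Treg and 0.283 ± 0.089% in Tcon. In every class other than aromatic then aromatic and aromatic then small, the Treg and Tcon libraries overlapped.

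Letters 6 and 7 were compared with the neighbouring windows of 2 letters at equal V, J and length. The share with both letters hydrophobic was 1.06 points higher in Treg than in Tcon at letters 5 and 6, 0.477 at letters 6 and 7, 0.747 at letters 9 and 10 and 0.475 at letters 10 and 11, each without overlap of the libraries. It differed by 0.0511 points at letters 7 and 8, 0.268 at letters 8 and 9 and 0.0425 at letters 11 and 12, where the libraries overlapped. The higher Treg share was thus not limited to letters 6 and 7. For CNS minus periphery, the window at letters 6 and 7 was the only 1 of 7 in which all CNS libraries lay above all periphery libraries. At letters 9 and 10 the CNS libraries all lay below periphery, by 0.603 points. At letters 5 and 6 the CNS difference was 0.211 points at equal V, J and length and -0.677 points as counted, with overlap in both.

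**Figure D3:**
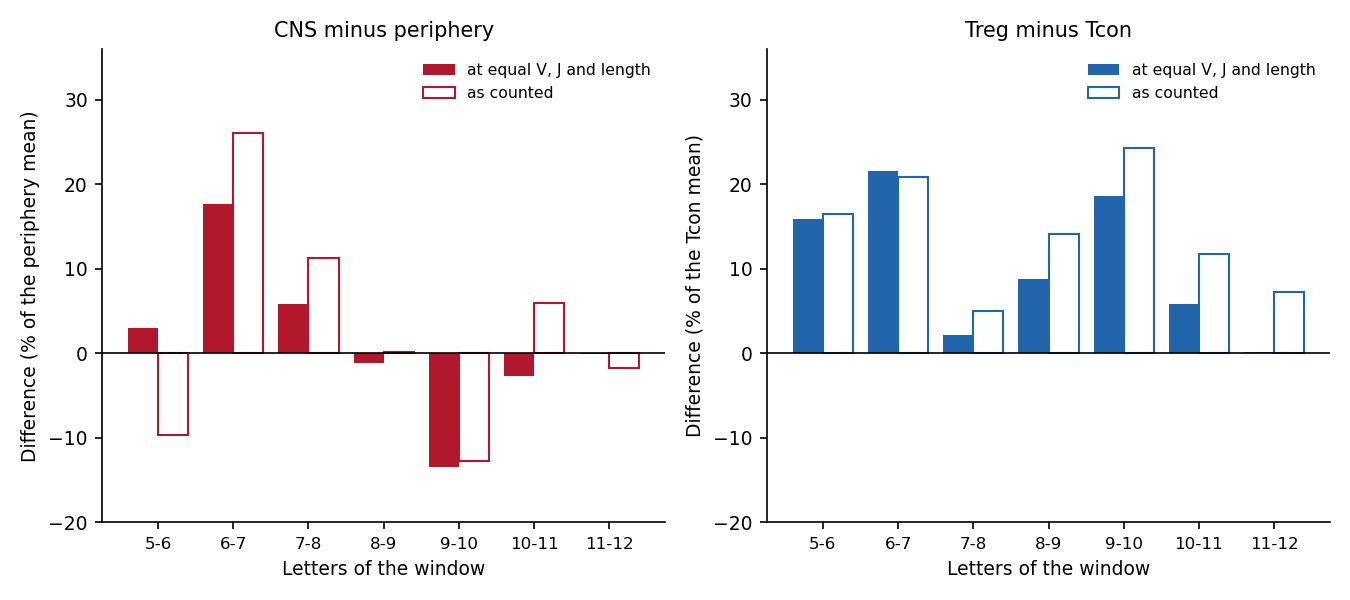
Difference in the share of eligible clonotypes with both letters hydrophobic, as a percentage of the mean of periphery (left, CNS minus periphery) or Tcon (right, Treg minus Tcon), for each window of 2 neighbouring letters; filled bars are at equal V, J and length and open bars as counted. At equal V, J and length the windows at letters 5 and 6, 6 and 7 and 9 and 10 stand highest in Treg, and CNS has its highest bar at letters 6 and 7 and its lowest at letters 9 and 10.

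The share of reads did not separate Treg from Tcon. Hydrophobic clonotypes took 3.57%, 1.66%, 2.53%, 2.69% and 2.71% of eligible reads in Treg EAE E18 replicates 1 to 5, 1.98% in Treg EAE non-pregnant and 2.79% in Treg naive non-pregnant. They took 2.38%, 2.05%, 2.18% and 2.10% in Tcon, in the same order as before. The libraries overlapped, and the difference of 0.282 points gave an exact permutation p = 0.417 (adjusted p = 0.556). It was 0.178 points without Treg EAE E18 replicate 1, and 0.130 without either of the naive non-pregnant libraries.

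The second comparison asked whether the set was larger among T cells of the inflamed CNS than in periphery. It made up 3.14% of eligible clonotypes in CNS replicate 1 (85 of 2703, Wilson 95% interval 2.55% to 3.87%), 3.07% in replicate 2 (2.42% to 3.89%) and 3.91% in replicate 3 (3.05% to 5.01%). In periphery it made up 2.86% in replicate 1 (2.57% to 3.18%), 2.47% in replicate 2 (2.11% to 2.88%) and 2.70% in replicate 3 (2.30% to 3.17%). All 3 CNS libraries were above all 3 periphery libraries, though several of the counting intervals overlapped. The means were 3.38 ± 0.47% in CNS and 2.68 ± 0.20% in periphery (SD, n = 3 each), a difference of 0.699 points. The exact permutation p was 0.1, the smallest that 3 against 3 libraries allow, and the adjusted p was 0.16. Without CNS replicate 3, the library with the fewest rearrangements, the difference was 0.430 points.

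At equal V, J and length the CNS shares were 2.82%, 3.03% and 3.36%, against 2.77%, 2.47% and 2.60% in periphery. The libraries stayed apart, by 0.463 points (exact permutation p = 0.1, adjusted p = 0.16), but CNS replicate 1 and periphery replicate 1 lay close together. They overlapped with letters A and C left out of the hydrophobic list (0.487 points), after the filter on possible carry-over of reads between libraries (0.515 points) and with indirect standardisation (0.442 points), each with exact permutation p = 0.2. That filter removed 11.4% to 20.8% of rearrangements in CNS libraries and 2.06% to 4.40% in periphery.

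The CNS libraries lay above periphery within TRBV13-2 and overlapped with it over all other V segments together. This split was chosen after the values were seen. Within TRBV13-2, the hydrophobic share was 6.90%, 6.21% and 8.27% in CNS, against 4.92%, 3.91% and 5.40% in periphery, on 322 to 536 eligible TRBV13-2 clonotypes per CNS library. The libraries did not overlap, and the means differed by 2.39 points. Outside TRBV13-2, the share was 2.38 ± 0.15% in CNS and 2.32 ± 0.15% in periphery. That difference was 0.0641 points (exact permutation p = 0.7), and the libraries overlapped. TRBV13-2 also made up 20.2 ± 5.4% of eligible clonotypes in CNS and 14.7 ± 0.76% in periphery, and 42.7 ± 12.0% of the hydrophobic set in CNS against 26.1 ± 4.2% in periphery. Over the 19 V segments, the hydrophobic share was higher in CNS in 9. TRBV1, also named after its values were seen, was the other V segment without overlap, from 2.01% to 3.73% in CNS and from 1.003% to 1.89% in periphery, a difference of 1.41 points. TRBV1 made up only 5.44% of eligible clonotypes in CNS, so its CNS shares rest on few clonotypes and the gap between the groups is narrow.

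TRBV13-2, TRBV29 and TRBV1 are V segments favoured by natural killer T cells, a T cell type that the sort could hold. These 3 segments together made up 28.1 ± 3.6% of eligible clonotypes in CNS and 24.3 ± 1.2% in periphery. The lowest CNS library, at 25.07%, was just above the highest periphery library, at 25.03%. Of the 3, only TRBV13-2 had a higher mean in CNS. TRBV1 made up 5.44% in CNS and 6.94% in periphery, and TRBV29 2.49% in CNS and 2.64% in periphery. In Treg the 3 together made up 21.7 ± 1.6% and in Tcon 22.5 ± 1.8%, with overlap. The alpha chain that defines natural killer T cells was not measured, and their part in these results was not tested.

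**Figure D4:**
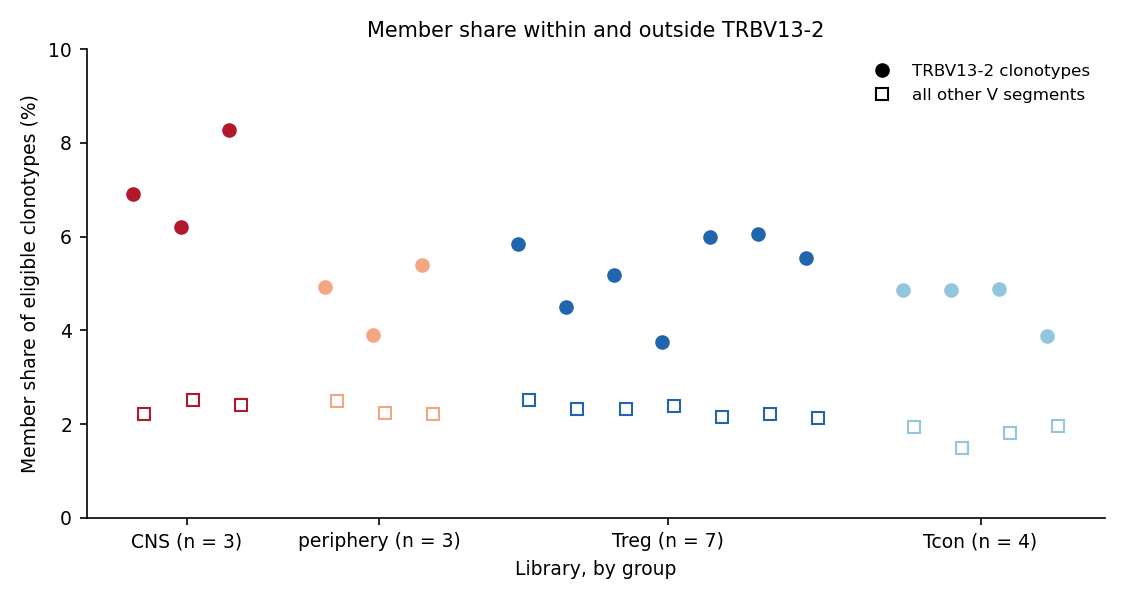
Share of hydrophobic clonotypes among eligible clonotypes, in percent, within TRBV13-2 (filled points) and over all other V segments (open squares), with 1 point of each kind per library. Within TRBV13-2 the CNS libraries lie between 6.21% and 8.27% and the periphery libraries between 3.91% and 5.40%, while outside it both groups lie between 2.22% and 2.52%.

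By letter pair, none of 87 pairs tested with edgeR was called for CNS over periphery (0%); 13 had an unadjusted p under 0.05 (14.9%), and DESeq2 called 0. The 3 hydrophobic pairs tested had log2 fold changes of 0.56 ± 0.32 for AW, 0.55 ± 0.38 for AA and 0.39 ± 0.40 for AL, with edgeR adjusted p-values of 0.492, 0.610 and 0.777. AW was 0.370%, 0.419% and 0.464% in CNS and 0.237%, 0.303% and 0.298% in periphery, without overlap. In CNS over periphery, 19 of the 87 pairs tested (21.8%) did not overlap, 8 of them higher in CNS (9.2%). YW had too few clonotypes to be tested here. It was 0.296%, 0.372% and 0.464% in CNS, from 7 or 8 clonotypes a library, and 0.175%, 0.111% and 0.112% in periphery, so the libraries did not overlap. Pairs with tryptophan made up 1.23 ± 0.15% in CNS and 0.904 ± 0.048% in periphery, without overlap, and pairs without it 2.14 ± 0.53% in CNS and 1.77 ± 0.15% in periphery, with overlap. Aromatic then aromatic pairs made up 0.455 ± 0.15% in CNS and 0.248 ± 0.067% in periphery, with overlap. Small then aromatic pairs were higher in CNS without overlap, at 0.520 ± 0.0096% against 0.398 ± 0.060% in periphery. Pairs ending in a small letter were lower in CNS without overlap after an aliphatic letter (0.122 ± 0.067% against 0.303 ± 0.060%). The same held after an aromatic letter (0.0468 ± 0.041% against 0.128 ± 0.046%), but barely. There the CNS libraries ranged from 0% to 0.0740%, and the lowest periphery library was at 0.0746%. With 1508 to 2703 eligible clonotypes per CNS library, both of these CNS shares rest on very few clonotypes. The remaining classes overlapped.

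The share of reads ran the other way. Hydrophobic clonotypes took 1.79%, 2.15% and 1.63% of eligible reads in CNS, against 2.93%, 2.43% and 2.57% in periphery (difference -0.786 points, exact permutation p = 0.1, adjusted p = 0.16). In CNS the share of reads was below the share of clonotypes in 3 of 3 libraries, by 0.922 to 2.28 points. Leaving out the 10 largest clonotypes of each library, an alternative added after seeing the data, brought the difference in reads to -0.0231 points (exact permutation p = 1). Among the 100 largest eligible clonotypes of a library, 1 or 2 were hydrophobic in CNS and 1 to 3 in periphery. Among clonotypes ranked 101 to 1000 by reads, 3.22%, 3.89% and 5.11% were hydrophobic in CNS, against 3.44%, 2.22% and 2.89% in periphery. In CNS replicate 3, 52.5% of hydrophobic clonotypes and 53.2% of the rest had 1 read. Its ranks up to 1000 therefore included clonotypes with 1 read, ordered by V segment name, so its 5.11% does not describe mid-sized clones. Counts of 1 or 2 in 100 are too small to distinguish from the share of clonotypes in CNS, 3.07% to 3.91%.

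**Figure D5:**
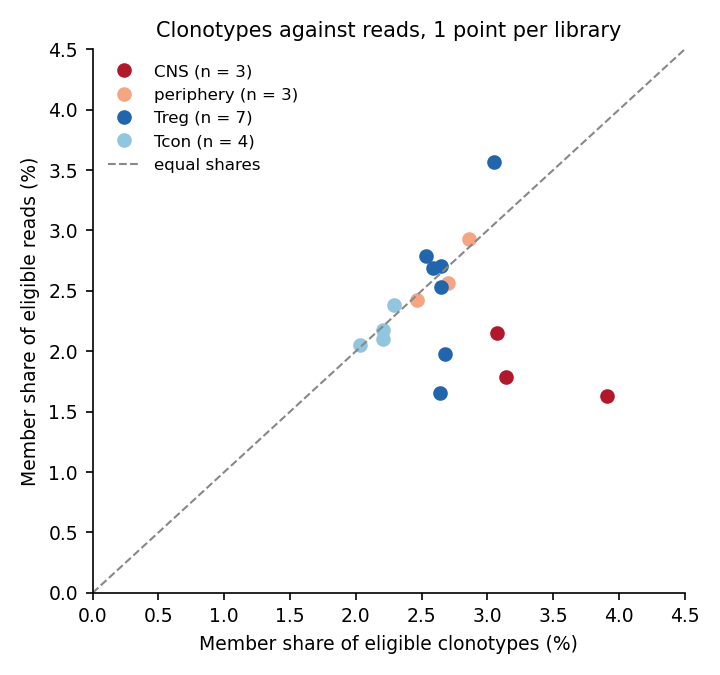
Share of eligible reads against share of eligible clonotypes held by the hydrophobic set, both in percent, with each point 1 library and a dashed line of equal shares. The 3 CNS libraries lie between 3.07% and 3.91% of clonotypes but at 1.63% to 2.15% of reads, and the periphery libraries lie between 2.43% and 2.93% of reads.

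The study's design also compares pregnant with non-pregnant and immunized with naive mice. At equal V, J and length the share averaged 2.60 ± 0.26% in E18 libraries (n = 7) and 2.33 ± 0.36% in the non-pregnant libraries with an E18 counterpart (n = 3) of DEREG mice. The Treg naive non-pregnant library has none and was left out of this comparison. Compared within cell type and immunization, the difference was 0.0753 points (exact permutation p = 0.583, adjusted p = 0.667). Of the E18 libraries, 5 were Treg, so the means alone mix cell types. The share averaged 2.36 ± 0.35% in EAE libraries and 2.36 ± 0.23% in naive libraries (n = 3 each, compared within cell type and gestational state, without the 5 Treg EAE E18 libraries, which have no naive counterpart), a difference of -0.00658 points (exact permutation p = 1, where the smallest possible is 0.25). The libraries overlapped in both comparisons.

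Single hydrophobic clonotypes reached at most 0.629% of a library's eligible reads. That was the VY clonotype of TRBV31 printed above, in Treg EAE E18 replicate 2. In Treg EAE E18 replicate 4 the largest was the VW clonotype of TRBV13-2 at 0.510%, and in replicate 1 it was the LW clonotype of TRBV13-2 at 0.311%. The LW clonotype also took 0.0571% of replicate 3, with the same DNA sequence. The largest in the CNS libraries were the AW clonotype with TRBJ1-2 at 0.303% of replicate 1, the AA clonotype of TRBV13-1 at 0.538% of replicate 2 and the AA clonotype of TRBV13-2 at 0.491% of replicate 3. In periphery the largest per library took 0.100% to 0.142% of eligible reads, and in Tcon 0.0475% to 0.155%. No clonotype was the largest of the set in more than 1 library.

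Of the hydrophobic clonotypes, 325 of 2922 distinct ones (11.1%) occurred in 2 or more libraries, as did 14249 of 108680 of the rest (13.1%). This is a description, since libraries differ in depth and can share reads through carry-over. Removing a rearrangement from any library where it had under 1% of its reads in the library holding most left 9.17% of the set and 11.6% of the rest in 2 or more. The most widely shared was the AW clonotype with TRBJ2-3, found in 8 libraries through 5 DNA sequences. It took 0.00110%, 0.0423% and 0.0871% of eligible reads in the CNS libraries and had no read in the periphery libraries. It also occurred in 3 Treg libraries, at up to 0.0107%, and in 2 Tcon libraries, at up to 0.0113%, all from spleen and lymph nodes. Of the 10 hydrophobic clonotypes found in the most libraries, 8 were TRBV13-2. The YW clonotype of TRBV1 took 0.0436% of periphery replicate 2 and 0.0927% of periphery replicate 3, with a different DNA sequence in each.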

How the data were processed

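The deposited tables list 1 TCRβ rearrangement per row, with its read counts, its fraction of the library's reads, CDR3 nucleotide and amino acid sequences, V, D and J segments and segment boundaries, per the file headers. Counts are the authors' deposited read counts, and the deposited fraction equals count over library total. The genome build is mm10 per the submitters' processing notes, and the alignment program is not given in the sources used here. Boundaries count from 0 and include the named base, as checked against each V segment's common sequence (98.9% of 94676 bases matched at the V end and 4.76% of bases 1 further on). Segment positions come from RefSeq's table of GRCm38.p6, where 38 of 38 segments matched.

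The members, letter lists, splits and tests were chosen with earlier results of these data known. A clonotype (1 V segment plus 1 CDR3 amino acid sequence) was counted once per library. Shares at equal V, J and length came from a binomial logistic model (statsmodels 0.14.6), with segments under 600 eligible clonotypes merged. Library shares were compared by exact two-sided permutation within strata (differences weighted over strata), with Benjamini-Hochberg adjustment over 8 comparisons. Letter pairs went through edgeR 4.0.16 under R 4.3.3 (quasi-likelihood, TMM, Benjamini-Hochberg), on counts of distinct clonotypes with a mean of at least 10, and with DESeq2 1.42.0 as an alternative. The logistic model and the edgeR test were each run on simulated data, drawn without added spread between libraries of a group. Alternatives were the hydrophobic letters without A and C, at least 2 reads, removal of a rearrangement from a library where it has under 1% of its reads in the library holding most, other denominators, and each library left out. Deviations of same-numbered CNS and periphery libraries had r = 0.0480, -0.00523 and 0.0377 over letter pairs. Differently numbered libraries had r from -0.0506 to 0.0243. On counts this small, such values cannot show whether the libraries are paired. The numbers were not used as pairs in the main tests. Pairs named are those called and the 10 hydrophobic pairs of largest mean share. Clonotypes described singly were drawn from the largest per library, the 10 in most libraries and the 5 of largest mean share per group. Segments and lengths named are the 3 highest and 3 lowest with at least 1% of eligible clonotypes.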

Additional observations from a re-analysis of the deposited data

Results flagged for a closer look

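In Treg EAE E18 replicate 1, hydrophobic clonotypes made up 3.05% of eligible clonotypes, apart from the other 4 libraries of that group, which lay between 2.59% and 2.65%. Its gap to the nearest of the others was 0.868 of the group's range, above Dixon's 95% critical value of 0.710 for 5 samples. This was 1 of 12 such checks over 6 measures, and chance marks about 1 in 20 groups. The same library had the highest share of pairs with tryptophan among Treg libraries, 1.49%, and the highest share of reads, 3.57%. Without it, the difference between Treg and Tcon at equal V, J and length was 0.450 points.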

How the results depend on the processing

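The share of clonotypes was higher in Treg than in Tcon, and higher in CNS than in periphery, under every alternative run and with any 1 library left out, though by 0.00545 points for Treg when pairs with tryptophan were not counted and by 0.0641 points for CNS without TRBV13-2. Treg minus Tcon in clonotypes was 0.381 points with letters A and C left out, 0.395 with at least 2 reads and 0.427 without TRBV13-2, the last added after seeing the data. Each had exact permutation p = 0.0417, unadjusted and the smallest that 24 assignments allow, where the values as reported had 0.0833. At equal V, J and length it was 0.468 with indirect standardisation over cells of V, J and length (exact permutation p = 0.0833). It was 0.473 with length and D segment joined as 1 factor, added after seeing the data (exact permutation p = 0.0833). With single libraries left out, it ranged from 0.385 to 0.506 as counted, from 0.394 to 0.532 at equal V, J and length, and from 0.130 to 0.413 in reads; fewer assignments then raise the smallest possible p. CNS minus periphery ranged from 0.430 to 0.852 as counted, from 0.317 to 0.591 at equal V, J and length, and from -0.932 to -0.641 in reads. E18 minus non-pregnant ranged from -0.00905 to 0.132 and EAE minus naive from -0.0667 to 0.104, so both changed sign when single libraries were left out. These were Tcon EAE E18 replicate 5 (-0.00837) and Tcon EAE non-pregnant replicate 2 (-0.00905) for pregnancy, and Tcon EAE non-pregnant replicate 2 (0.104) and Tcon naive non-pregnant replicate 1 (0.104) for immunization. Letter pairs called for Treg over Tcon numbered 4 as reported, 0 with reads in place of clonotypes, 7 after the carry-over filter, 9 with at least 2 reads and 0 to 12 with a library left out (0 without Tcon EAE E18 replicate 5, 12 without Treg EAE E18 replicate 5, 8 without Treg EAE E18 replicate 1 and 8 without Tcon naive E18 replicate 2). YW was called in 14 of 16 settings, not with reads or without Tcon EAE E18 replicate 5, and with at least 2 reads it was under the count minimum. For CNS over periphery, called pairs numbered 0 as reported, 1 with no filter on low counts, 4 with at least 2 reads and 0 to 1 with a library left out. The causes of these changes were not tested. With the replicate number as a block, the CNS differences were 0.699, 0.463 and -0.786 (exact permutation p = 0.25 each, the smallest that 3 pairs allow) and 0 pairs were called, so the block changed no call. The carry-over filter removed 11.4% to 20.8% of rearrangements in CNS libraries, 2.06% to 4.40% in periphery, 0.481% to 12.7% in Treg and 0.126% to 0.903% in Tcon. The number of distinct clonotypes limits precision: CNS libraries hold 59 to 85 hydrophobic clonotypes each.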
